A study of Mus musculus with 2 samples.

Results

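The RNAs copied from mitochondrial DNA were taken as every gene in the deposited gene lists whose symbol starts with mt-. The rule found 37 of 55357 genes: 2 ribosomal RNA (rRNA) genes, 22 transfer RNA (tRNA) genes and 13 protein genes. Their raw UMI counts, where a UMI is a tag that marks a single captured molecule, were read in both libraries of the series, 1 in each group, made in droplets from T cells of mouse ileum. In the study, dendritic cells (DCs) were first exposed to phages, which are viruses of bacteria. Gut T cells of GF mice were added to them afterwards, and T cells that touch such DCs receive a fucosyl-biotin tag on their surface by the FucoID method, and the tagged cells can be sorted. The library titled SAP was read as the one whose DCs met phages from SAP mice, and the library titled Control as the one set against it, with phages from healthy mice as the other source that the design names. All T cells came from GF hosts in the 2 groups, and the labels give no age or sex. Whether the sequenced cells were the tagged fraction, and how many mice were pooled, was not given in the sources used here.

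Mitochondrial DNA is a small circular genome, present in many copies per cell, that is transcribed from both strands into long RNAs. These are cut apart, in large part at the tRNAs that lie between the other genes, into the rRNAs of the mitochondrial ribosome, the tRNAs, and the messengers for core subunits of the respiratory chain and of ATP synthase. All other mitochondrial proteins are encoded in the nucleus and imported. In T cells the respiratory chain supports quiescent and memory states, and it is enlarged when a T cell is activated. In single-cell libraries the mitochondrial share of molecules is also widely used as a mark of cell quality.

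The Control library held 5737 barcodes with 19142384 UMIs and the SAP library 5203 barcodes with 19144320 UMIs, with medians of 3121 and 3351 UMIs per barcode. At least 2 UMIs of a list of 14 T cell markers were present in 98.0% of Control barcodes and 97.2% of SAP barcodes, and all 14 markers were detected in both. Levels are given as CPM, the UMIs of a gene scaled to a library of 1000000 UMIs. The summed levels of other markers in Control and SAP were 1079 and 112 CPM for 8 B and plasma cell markers, of which Mzb1 was at 0 in both. They were 103 and 130 CPM for 9 epithelial markers and 1233 and 1102 CPM for 9 dendritic and myeloid markers, of which Flt3 was at 0 in SAP. The 4 stromal markers summed to 25.4 and 30.1 CPM, with Dcn at 0 in both, and the 4 erythroid markers to 4.34 and 2.28 CPM, with Hba-a2, Hbb-bs and Hbb-bt at 0 in both. The part that these other cell types take in the results below was not tested. Of all barcodes, 6 sequences occur in both libraries.

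A small set of barcodes stood apart and differed in size between the libraries. Barcodes with at least 3 UMIs of Folr1, a folate receptor gene that is not a T cell marker, numbered 21 in Control and 51 in SAP, 0.366% and 0.980% of barcodes. They were very deep, with medians of 24601 and 30072 UMIs, and so held 2.90% and 7.67% of all UMIs. Their mitochondrial RNA was unlike that of the other barcodes: mitochondrial genes took 0.5004% and 0.4988% of their UMIs, and rRNA made up 89.3% and 90.9% of that. The threshold was chosen after seeing the data, and what these barcodes are was not tested. These are called the Folr1 barcodes, and the ratios between the libraries, the gene counts and the results that they move are given with and without them.

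Gene layout sets which reads can be told apart, so the sequences that bear on the results come first. They are from GENCODE M21, on the GRCm38 build, in which all 37 identifiers were found. Several mitochondrial genes overlap. The gene mt-Atp8 lies at chrM:7766-7969 on the plus strand, and its last 43 bases, in capitals, are also the first bases of mt-Atp6. The last 7 bases of mt-Nd4l, at chrM:9877-10173 on the plus strand, are likewise shared with mt-Nd4. These 2 short genes are shown because they were the protein genes that were lowest in SAP relative to Control.
mt-Atp8: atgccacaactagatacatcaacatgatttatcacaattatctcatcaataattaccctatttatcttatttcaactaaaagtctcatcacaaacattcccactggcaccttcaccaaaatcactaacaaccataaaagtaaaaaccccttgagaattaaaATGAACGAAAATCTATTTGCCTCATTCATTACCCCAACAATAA
mt-Nd4l: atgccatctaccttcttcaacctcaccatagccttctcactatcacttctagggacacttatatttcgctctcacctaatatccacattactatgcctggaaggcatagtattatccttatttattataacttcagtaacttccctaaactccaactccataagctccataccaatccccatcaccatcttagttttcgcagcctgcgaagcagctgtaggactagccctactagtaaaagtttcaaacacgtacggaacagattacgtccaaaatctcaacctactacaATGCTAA

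The labels give the molecule as polyA RNA, and a 3′ kit catches RNA by stretches of A, so the 20 bases with the most A are shown for both rRNAs, for the most abundant protein gene and for the light-strand protein gene. Capitals mark each A. The window of mt-Rnr1 lies at chrM:725-744, that of mt-Rnr2 at chrM:1488-1507, that of mt-Cytb at chrM:14148-14167, all on the plus strand, and that of mt-Nd6 at chrM:13830-13849 on the minus strand. They hold 15, 16, 13 and 8 A. The order of genes by this number was not their order by level: mt-Nd2 and mt-Atp8, with 14 A, stood below mt-Cytb per length. What the windows contribute to the counts was not tested.
mt-Rnr1: AAAAgAAtcAAAcAtAAAAA
mt-Rnr2: AAAAAAAcAAcAAAAtcAAA
mt-Cytb: AcAAAcAtAcgAAAAAcAcA
mt-Nd6: tActgAggAAtAtccAgAgA

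Mitochondrial genes took 252444 of the UMIs in Control, 1.32% (95% exact interval 1.31 to 1.32), and 303374 in SAP, 1.58% (1.58 to 1.59). This share of UMIs, called the mitochondrial share, was 1.202-fold higher in SAP (1.195 to 1.208), and 1.25-fold higher without the Folr1 barcodes (1.24 to 1.25). The median barcode had 37 mitochondrial UMIs in Control and 50 in SAP, with a median share of 1.201% and 1.53%. All intervals here cover counting error only. With 1 library in each group there is no replicate, no test was run, and a difference between the groups and a difference between these 2 libraries cannot be told apart.

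The spread between barcodes was much wider than the difference between the libraries. From the 5th to the 95th percentile the share ran from 0.430% to 5.50% in Control and from 0.525% to 8.12% in SAP, so the 2 distributions overlapped over most of their range. The upper end differed more than the middle. A share above 10% was seen for 63 barcodes in Control, 1.10% (0.845 to 1.40), and for 163 in SAP, 3.13% (2.68 to 3.64). The highest single values were 91.4% and 92.1%. No mitochondrial UMI at all was seen in 33 Control and 17 SAP barcodes.

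The rRNAs, which form the small and the large subunit of the mitochondrial ribosome, made up most of the signal. Together they had 147054 UMIs in Control and 187640 in SAP, 58.3% (58.1 to 58.4) and 61.9% (61.7 to 62.0) of mitochondrial UMIs, and 57.9% and 61.1% without the Folr1 barcodes. There were thus 1.40 rRNA UMIs for each protein-gene UMI in Control and 1.62 in SAP. The small rRNA, mt-Rnr1 (chrM:70-1024), stood at 2385 CPM in Control and 3573 in SAP, from 45661 and 68410 UMIs. The large rRNA, mt-Rnr2 (chrM:1094-2675), stood at 5297 and 6228 CPM, from 101393 and 119230 UMIs.

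Both rRNAs were higher in SAP, and the small rRNA by more. The ratio of SAP to Control was 1.498 for mt-Rnr1 (1.48 to 1.52) and 1.18 for mt-Rnr2 (1.17 to 1.19), and without the Folr1 barcodes it was 1.56 and 1.21. Compared per length, which is needed to set genes side by side, mt-Rnr2 had 3348 CPM per kb in Control and 3937 in SAP, and mt-Rnr1 had 2498 and 3742. The 2 rRNAs were therefore closer to equal per length in SAP than in Control. A 3′ kit counts each molecule about once whatever its length, so a level per length is a convention for the comparison and not a number of molecules.

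**Figure D1:**
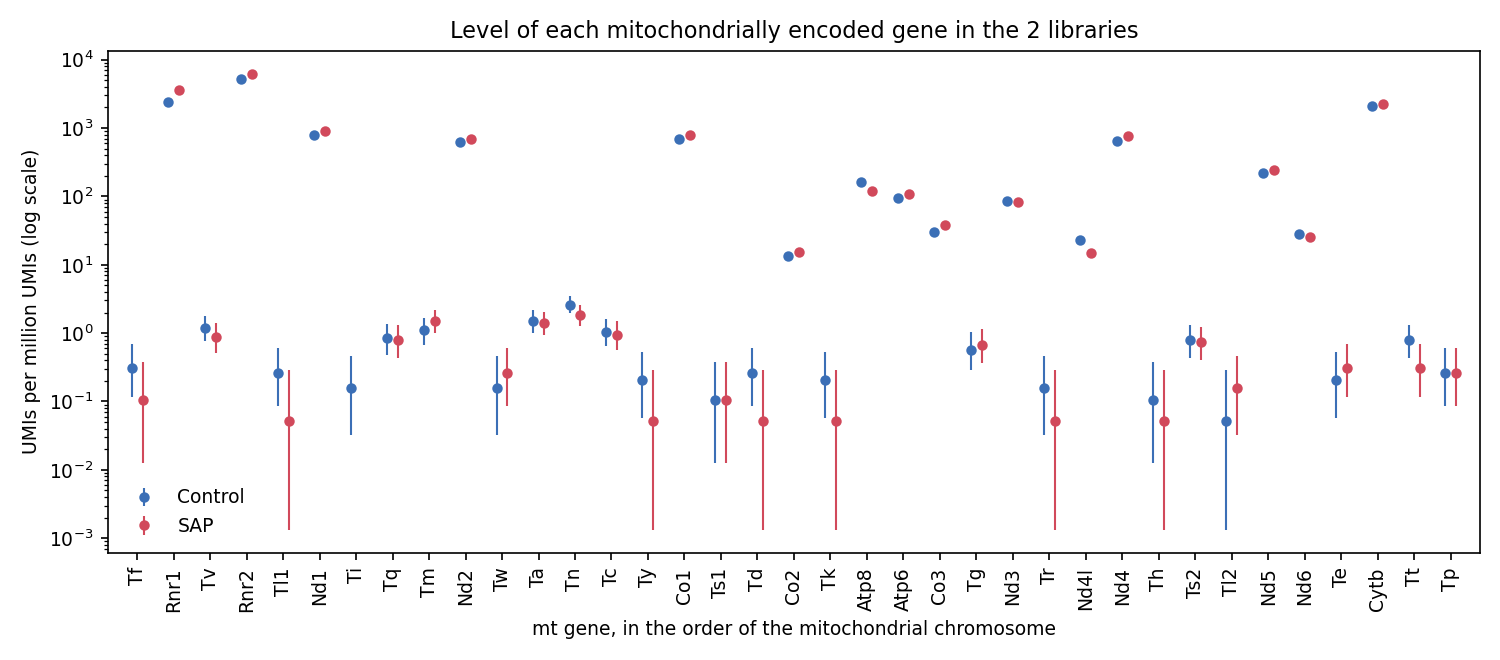
Level of mitochondrial genes in each library, as CPM on a log axis and not per length, with 1 point per gene and library. The rRNAs and mt-Cytb are highest in both libraries, and the lowest protein gene is mt-Co2 in Control, at 13.5 CPM, and mt-Nd4l in SAP, at 15.0.

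Complex I, the NADH dehydrogenase through which electrons enter the chain, takes 7 subunits from mitochondrial DNA. They summed to 46126 UMIs in Control and 52372 in SAP, 1.14-fold higher in SAP (1.12 to 1.15). Per length mt-Nd1 and mt-Nd2 stood highest, mt-Nd1 at 827 CPM per kb in Control and 952 in SAP, and mt-Nd2 at 605 and 668. By UMIs mt-Nd4, with 12182 in Control and 14639 in SAP, was above mt-Nd2, with 12029 and 13268. The gene mt-Nd4, for a proton-pumping subunit, stood at 462 and 555 CPM per kb, and mt-Nd5, for another, at 120 and 134. The small subunit genes mt-Nd3 and mt-Nd4l had 244 and 76.3 CPM per kb in Control and 234 and 50.7 in SAP. The light-strand gene mt-Nd6 had 53.4 and 49.8.

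Within complex I the genes did not move alike. The ratio of SAP to Control was 1.202 for mt-Nd4 (1.17 to 1.23), 1.15 for mt-Nd1 (1.13 to 1.18), 1.12 for mt-Nd5 (1.08 to 1.17) and 1.10 for mt-Nd2 (1.08 to 1.13). The intervals of mt-Nd3, at 0.961 (0.896 to 1.03), and of mt-Nd6, at 0.932 (0.823 to 1.06), included 1. Lowest was mt-Nd4l, with 434 UMIs in Control and 288 in SAP and a ratio of 0.664 (0.570 to 0.772). Without the Folr1 barcodes these ratios were 1.26 for mt-Nd4, 1.21 for mt-Nd1, 1.17 for mt-Nd5, 1.16 for mt-Nd2, 1.01 for mt-Nd3, 0.976 for mt-Nd6 and 0.698 for mt-Nd4l.

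Complex III has a single mitochondrial gene, mt-Cytb, for cytochrome b, at chrM:14145-15288. It was the most abundant protein gene, with 39810 UMIs in Control and 42663 in SAP, 1818 and 1948 CPM per kb. Its ratio of 1.07 (1.06 to 1.09) was the lowest of the 9 longer protein genes. It was 1.12 without the Folr1 barcodes, and turned to 0.992 when libraries were scaled by TMM. As a part of mitochondrial UMIs it went from 15.8% in Control to 14.1% in SAP. In barcodes matched for mitochondrial share, in 7 bins, the mt-Cytb ratio was below 1 in 7 of 7 bins and the mt-Rnr1 ratio above 1 in 7 of 7. Such matching holds the ratio of all mitochondrial genes near 1, at 0.997 to 1.05 in these bins. These counts therefore restate the change in composition and do not show a lower mt-Cytb level in SAP. In 7 bins of nuclear UMIs the mt-Cytb ratio was above 1 in 6, and in 7 without the Folr1 barcodes.

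Complex IV, cytochrome c oxidase, takes its 3 core subunits from mitochondrial DNA, and their counted levels were far apart. Nuclear copies, treated below, cover 99.6% of mt-Co2 and 99.9% of mt-Co3, and their part in the low counts was not tested. The catalytic subunit gene mt-Co1 had 13421 UMIs in Control and 15101 in SAP, 454 and 511 CPM per kb. The gene mt-Co3 had 584 and 732 UMIs, 38.9 and 48.8 CPM per kb, and mt-Co2, whose product takes electrons from cytochrome c, had 258 and 295 UMIs, 19.7 and 22.5 CPM per kb. The ratios were 1.13 for mt-Co1 (1.10 to 1.15), 1.25 for mt-Co3 (1.12 to 1.40) and 1.14 for mt-Co2 (0.964 to 1.36), the last with an interval that included 1. With the Folr1 barcodes left out they were 1.18, 1.31 and 1.202, the last with an interval of 1.01 to 1.43.

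The ATP synthase genes mt-Atp8 and mt-Atp6, which share their overlap and a messenger, went in opposite directions. The gene mt-Atp6, for the subunit that carries protons through the membrane, had 1791 UMIs in Control and 2059 in SAP, 137 and 158 CPM per kb, and its ratio was 1.15 (1.08 to 1.23). The gene mt-Atp8, for a small membrane subunit, had 3153 UMIs in Control and 2309 in SAP, 807 and 591 CPM per kb, and its ratio was 0.732 (0.694 to 0.773). They were 1.21 and 0.767 without the Folr1 barcodes. At least 1 mt-Atp8 UMI was seen for 35.9% of Control and 32.1% of SAP barcodes, and in 15.2% and 12.2% after each barcode was thinned to 1000 UMIs, which left out 567 and 652 shallower barcodes. Over the same thinned barcodes mt-Rnr1 was found in 77.7% and 89.1% (94.8% and 98.2% before thinning), mt-Rnr2 in 94.4% and 96.0%, and mt-Cytb in 79.9% and 81.1%.

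The tRNAs were close to the lower limit of detection. The 22 genes had 247 UMIs in Control and 203 in SAP, 0.0978% and 0.0669% of mitochondrial UMIs, a ratio of 0.822 (0.679 to 0.993) that was 0.840 (0.691 to 1.02) without the Folr1 barcodes. In SAP 15 of the genes had fewer UMIs than in Control, 5 had more and 2 had as many, over all barcodes and also without the Folr1 barcodes. The tRNA genes with at least 50 UMIs over both libraries were mt-Tn with 50 in Control and 35 in SAP, mt-Ta with 29 and 27, and mt-Tm with 21 and 29, of which 8 and 12 came from the Folr1 barcodes. The other 19 had 3 to 40 UMIs in total, and mt-Ti had 3 in Control and 0 in SAP, which allows up to 0.157 CPM. The most counted tRNA gene, mt-Tn, for asparagine, lies on the minus strand at chrM:5089-5159, and its whole sequence is shown as an example of so short an RNA. Its longest run of A is 3 bases.
mt-Tn: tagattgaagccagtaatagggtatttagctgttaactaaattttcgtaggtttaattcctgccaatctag

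Copies of mitochondrial DNA in the nuclear genome limit what some of these counts mean. A stretch at chr1:24611535-24616197, on the minus strand, holds 7 annotated copies that match mitochondrial genes at 99% identity or more over at least 40 bases. They cover 8 protein genes, of which 5 over 90% or more of their length, namely mt-Co2, mt-Atp6, mt-Co3, mt-Nd3 and mt-Nd4l. Those 5 ranged from 19.7 to 244 CPM per kb in Control. The 3 genes covered in part, mt-Co1, mt-Atp8 and mt-Nd4, were all above that range, and of the 5 genes with no such copy mt-Nd1, mt-Nd2 and mt-Cytb were above it and mt-Nd5 and mt-Nd6 within it. Over the last 300 bases, or the whole of a shorter gene, the copies cover 100% of mt-Co1, 21.1% of mt-Atp8 and 0% of mt-Nd4. That copy of mt-Co1 has 1 mismatch over 483 bases, and the copy of mt-Nd3 has 1 over 345. Those of mt-Co2, mt-Atp6, mt-Co3 and mt-Nd4l have 0. The 7 copies themselves were given 179 UMIs in Control and 197 in SAP. How reads that fit both places were counted is not given in the sources used here, and the part of the copies in the low levels was not tested.

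**Figure D2:**
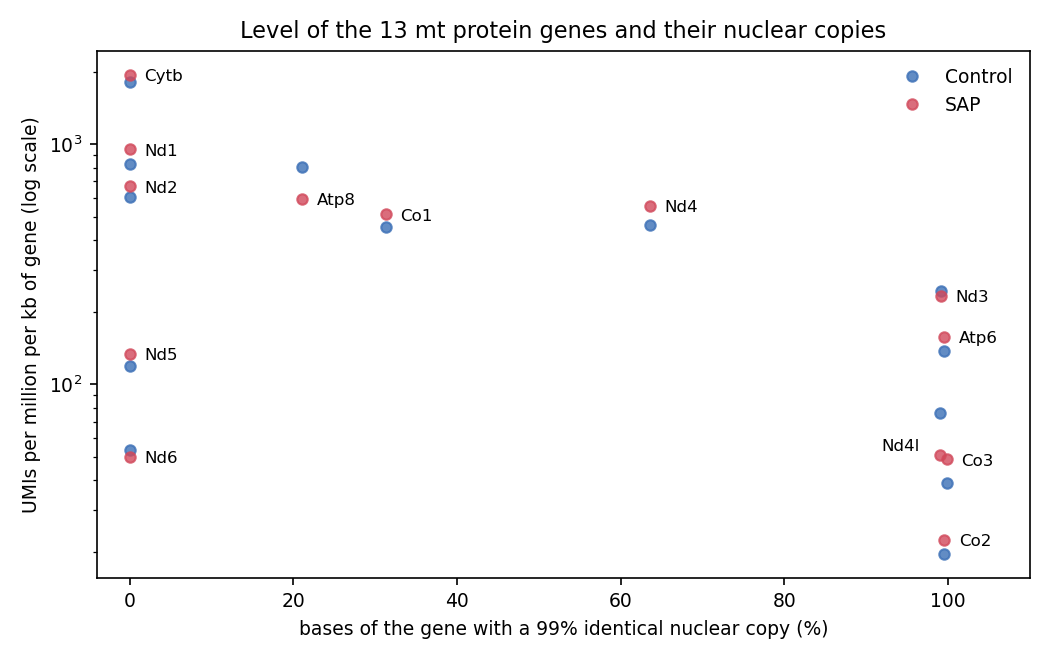
Level of the 13 protein genes in CPM per kb, on a log axis, against the percent of each gene that has a nuclear copy at 99% identity or more, with 1 point per gene and library. The 5 genes with almost complete copies lie at or below 244 CPM per kb in Control and 234 in SAP, and genes with partial copies lie at 454 CPM per kb or above. Among the latter is mt-Co1, whose last 300 bases are fully copied. The part of the copies in these levels was not tested.

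Another nuclear copy shows the opposite case. Gm13340, at chr2:22588103-22589647 on the minus strand, spans all 1545 bases of mt-Co1 and differs from it at 37 of them, an identity of 97.6%, so reads that cross these bases can be told apart. It was chosen after its values were seen. A window of 80 bases, from base 455 to base 534 of the gene, at chrM:5782-5861 and chr2:22589114-22589193, shows in capitals the bases at which they differ.
mt-Co1: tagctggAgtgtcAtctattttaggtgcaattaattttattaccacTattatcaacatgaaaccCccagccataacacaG
Gm13340: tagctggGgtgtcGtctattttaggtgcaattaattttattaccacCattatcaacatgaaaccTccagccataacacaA
Gm13340 had 609 UMIs in Control and 1405 in SAP, but they came from 48 and 76 barcodes. Outside the Folr1 barcodes there were 191 and 211 UMIs. Over all barcodes the ratio of 2.31 (2.10 to 2.54) thus rested on the Folr1 barcodes, and without them it was 1.16 (0.951 to 1.42).

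The mitochondrial genes were then set against all other genes. A gene entered the comparison if it reached 20 CPM in Control or SAP and had 50 UMIs in total, as 5715 genes did, among them 14 of the 37 mitochondrial genes, with mt-Co2 and the tRNAs falling short. Of these 14, 3 were at least 1.2-fold higher in SAP, mt-Rnr1, mt-Co3 and mt-Nd4, beside 13.5% of all genes compared. At least 1.2-fold lower were 2, mt-Atp8 and mt-Nd4l, beside 2.43%. The median ratio was 1.12 for the 14 and 1.03 for all genes compared, and 10 of the 14 (71.4%) lay above 1, beside 62.0% of all genes compared. The counts past 1.2-fold are too small to be read against these shares.

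Without the Folr1 barcodes 5485 genes were compared. Of the same 14 mitochondrial genes 6 were then at least 1.2-fold higher in SAP, beside 7.22% of all genes, and 2 at least 1.2-fold lower, beside 1.51%. The median was 1.17 for the 14 against 1.04 for all, and 11 of the 14 lay above 1, beside 68.3% of all. Scaling by TMM instead of by all UMIs moved the median log2 ratio of all genes by -0.11, and mt-Rnr1 was then the single mitochondrial gene at least 1.2-fold higher, with the same 2 genes lower.

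Pairs of neighbouring genes show the uneven change without any scaling between libraries, since both genes of a pair are counted in the same library. The pairs were chosen after the values were seen. For each UMI of mt-Rnr2 there were 0.450 UMIs of mt-Rnr1 in Control (0.445 to 0.455) and 0.574 in SAP (0.568 to 0.579). For each UMI of mt-Atp6 there were 1.76 of mt-Atp8 in Control (1.66 to 1.87) and 1.12 in SAP (1.06 to 1.19). For each UMI of mt-Nd4 there were 0.0356 of mt-Nd4l in Control (0.0323 to 0.0392) and 0.0197 in SAP (0.0174 to 0.0221). By contrast mt-Nd1 per mt-Nd2 was 1.26 in Control and 1.31 in SAP. These values barely moved without the Folr1 barcodes: mt-Rnr1 per mt-Rnr2 was 0.452 and 0.585 there, and mt-Atp8 per mt-Atp6 was 1.76 and 1.12.

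The differences were then compared within bins of depth and within marker gates. With barcodes split into 7 bins by nuclear UMIs and into 6 gates by T cell genes, mt-Rnr1 per mt-Rnr2 was higher in SAP in 7 of 7 bins and 6 of 6 gates. The mt-Atp8 per mt-Atp6 value was lower in SAP in 7 of 7 bins and 6 of 6 gates, and mt-Nd4l per mt-Nd4 in 6 of 7 and 6 of 6. No single barcode carried them: the 10 barcodes richest in mt-Atp8 held 8.34% of its UMIs in Control and 4.11% in SAP. Bins and gates share 1 library per group and are not replicates.

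The shorter protein genes had the lower ratios. The 4 shortest, mt-Atp8, mt-Nd4l, mt-Nd3 and mt-Nd6, of 204 to 519 bases, had ratios from 0.664 to 0.961, and the 9 longer ones, of 681 to 1824 bases, from 1.07 to 1.25. Without the Folr1 barcodes the ranges were 0.698 to 1.01 and 1.12 to 1.31, with mt-Nd3 then just above 1. The split into 4 and 9 was made after the values were seen. Lengths in the reference were known for 99.9% of the nuclear genes compared. Without the Folr1 barcodes their median ratio was 1.03 for 20 genes shorter than 400 bases, 0.972 for 60 genes of 400 to 600 bases and 0.987 for 277 genes of 600 to 1000 bases. It was 1.01 for 874 genes of 1000 to 2000 bases, 1.04 for 2046 of 2000 to 4000 and 1.07 for 2190 of 4000 or more. From 400 bases up the medians thus rose with length, in smaller steps than among the mitochondrial genes. With those barcodes in, the medians of the 2 shortest classes were 2.38 (87 genes) and 2.11 (132 genes), so these barcodes set the medians of short nuclear genes. Whether fragment length in the 2 libraries bears on the short mitochondrial genes was not tested.

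**Figure D3:**
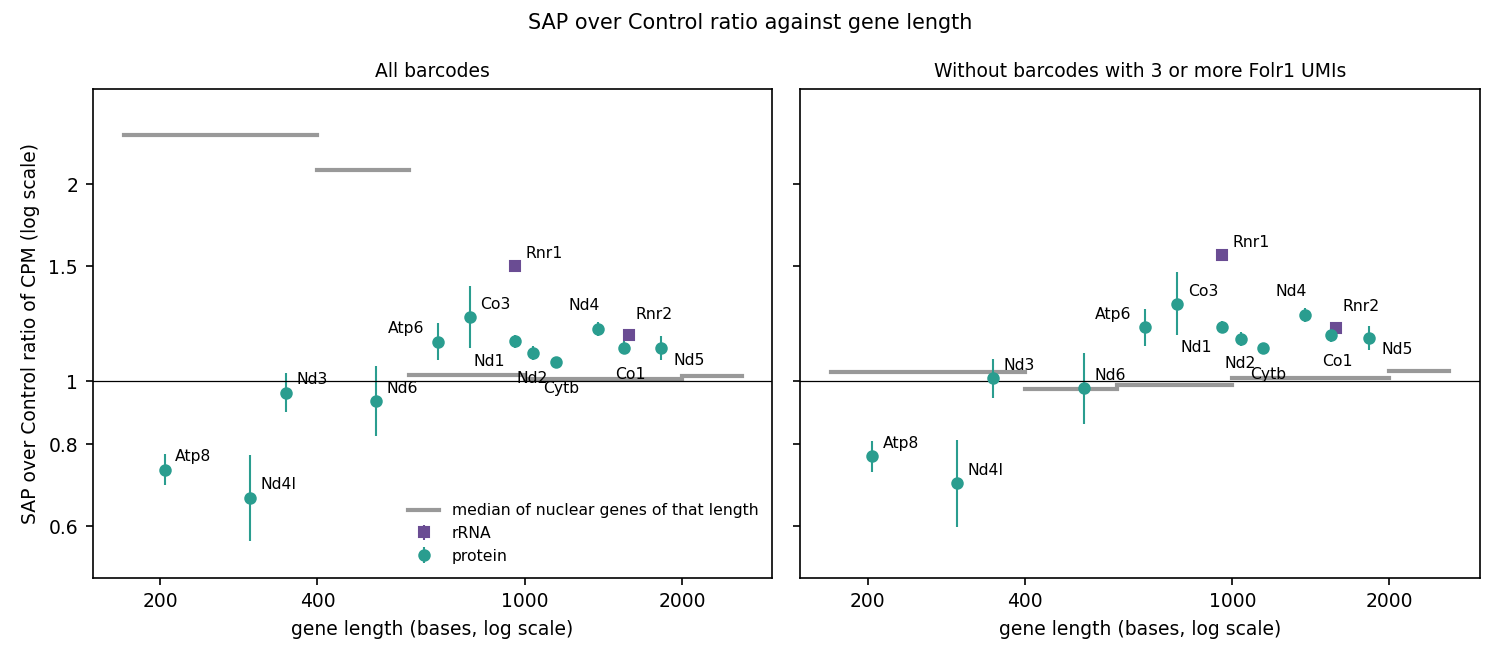
SAP over Control ratio of each mitochondrial rRNA and protein gene, on a log axis with 95% exact intervals for counting error, against gene length in bases on a log axis, for all barcodes and without the Folr1 barcodes. The 4 shortest protein genes lie at or below 0.961 over all barcodes and mt-Rnr1 stands highest at 1.498.

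Up to 6000 nuclear UMIs, the number of mitochondrial UMIs differed little between barcodes of different depth, and the mitochondrial share was lower in deeper ones. In barcodes with fewer than 1000 nuclear UMIs the median was 34.5 mitochondrial UMIs in Control and 47 in SAP. In those with 4000 to 6000 nuclear UMIs it was 42 and 54, in those with 6000 to 10000 it was 66 and 73, and at 10000 and over it was 106.5 and 138 (105 and 136 without the Folr1 barcodes). The share of summed UMIs in the shallowest bin and at 4000 to 6000 was 6.55% and 0.999% in Control and 8.54% and 1.21% in SAP. Above that, without the Folr1 barcodes, it was 0.984% at 6000 to 10000 and 0.853% at 10000 and over in Control, and 1.11% and 1.15% in SAP, so in SAP it was no lower in the deepest bin. Across barcodes the rank correlation of the 2 counts was 0.263 in Control and 0.227 in SAP, and that of the share with nuclear UMIs was -0.571 and -0.672 (0.259, 0.210, -0.571 and -0.668 without the Folr1 barcodes). These describe barcodes of the same library, whose share has the nuclear count in its denominator.

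Shallow barcodes were rich in other abundant RNAs too. Rn18s-rs5 is a gene annotated with cytosolic 18S rRNA sequence, and its level is given here as CPM of nuclear UMIs. It went from 46435 in Control barcodes with fewer than 1000 nuclear UMIs to 3602 in those with 4000 to 6000, and in SAP from 58699 to 4269. It was chosen after its values were seen. SAP had the larger mitochondrial share in 7 of 7 depth bins, by 1.06-fold to 1.39-fold, and by 1.13-fold to 1.39-fold without the Folr1 barcodes. Barcodes with fewer than 1000 nuclear UMIs were 10.7% of Control and 13.4% of SAP.

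The balance of rRNA and protein genes differed with depth as well, in no single direction. The rRNA part of mitochondrial UMIs was 59.1% in Control and 63.1% in SAP in barcodes under 1000 nuclear UMIs. It was highest, outside the deepest bin, at 1000 to 2000 nuclear UMIs, with 61.8% and 65.3%, and was 52.8% and 56.2% in those with 6000 to 10000. In the deepest bin, 10000 and over, it was 62.4% and 67.2% over all barcodes but 48.3% and 49.8% without the Folr1 barcodes, which were 13 of the 54 Control and 43 of the 102 SAP barcodes there. In every bin SAP had the larger rRNA part. The mt-Cytb part, without the Folr1 barcodes, was 15.99% in Control and 14.3% in SAP under 1000 nuclear UMIs, was lowest at 1000 to 2000, with 14.8% and 12.9%, and was highest at 10000 and over, with 19.0% and 18.8%.

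**Figure D4:**
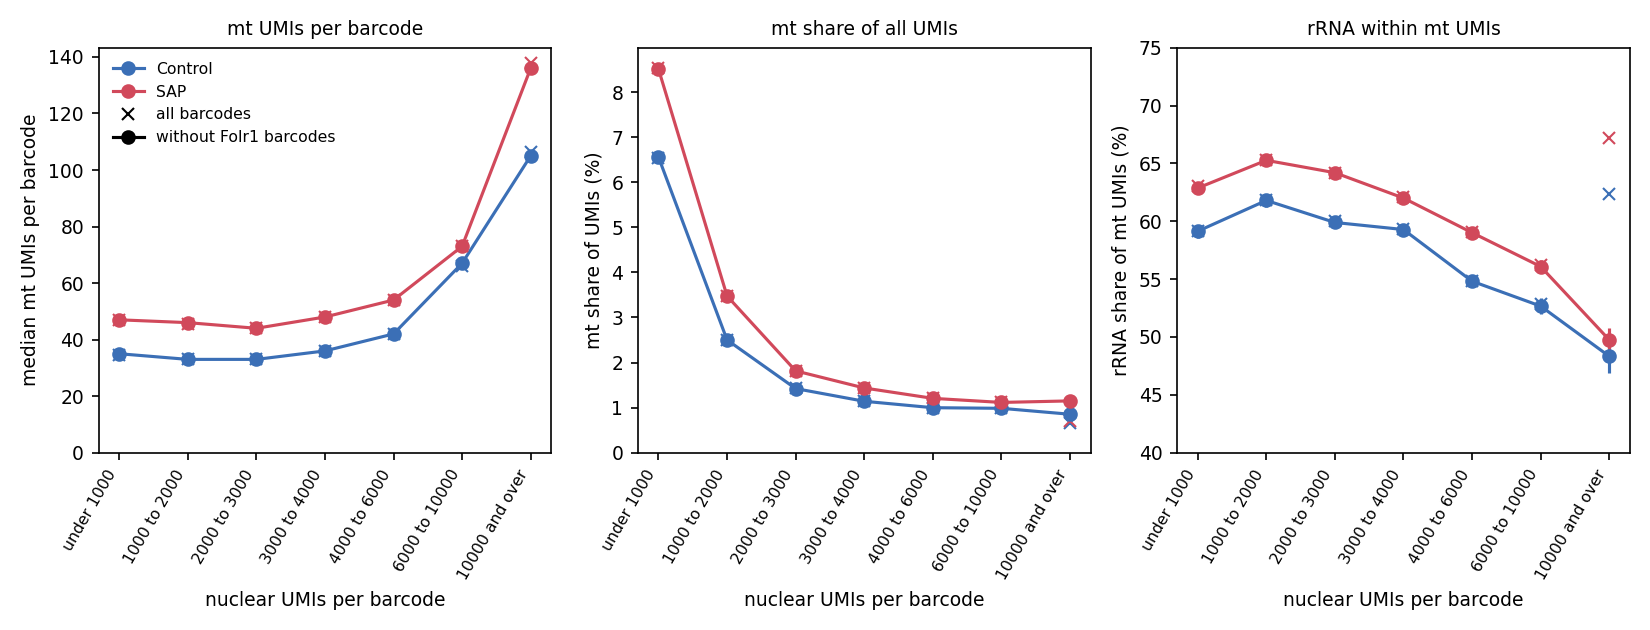
Median mitochondrial UMIs per barcode, mitochondrial share of summed UMIs in percent and rRNA part of mitochondrial UMIs in percent, in 7 bins of nuclear UMIs, by library. The counts change little up to 6000 nuclear UMIs while the share falls from 6.55% to 0.999% in Control and from 8.54% to 1.21% in SAP.

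Barcodes at the upper end of the mitochondrial share had another composition. In those at 20% and over, 17 in Control and 31 in SAP, the rRNA part was 44.5% (43.6 to 45.4) and 53.4% (52.5 to 54.3), and mt-Cytb took 22.7% and 18.9% of mitochondrial UMIs. The epithelial markers summed there to 4871 CPM of nuclear UMIs in Control and 1399.7 in SAP, against 103 and 130 over whole libraries. In barcodes with 10 to 20%, 46 and 133, they summed to 1237 and 69.9 CPM, and the rRNA part was 60.4% and 65.9%. The part of epithelial cells in these barcodes was not tested. Below 10% and without the Folr1 barcodes, the rRNA part was 46.1% in Control and 49.8% in SAP at a share under 0.5%, 62.7% and 63.4% at 2 to 5%, and 61.2% and 65.6% at 5 to 10%. It was thus lowest in barcodes with the least mitochondrial RNA and in those with the most.

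Gates on T cell genes were set by raw UMIs. The Trdc gate, for the constant region of the receptor delta chain, needed a Trdc UMI with Cd4 and Cd8b1 at 0, and the Cd8b1 gate, for the CD8 beta chain, a Cd8b1 UMI with Trdc and Cd4 at 0. The Cd8a-only gate needed a Cd8a UMI with the other 3 genes at 0, as CD8 alpha pairs without beta are common in gut intraepithelial T cells, and the Cd4 gate a Cd4 UMI with the other 3 at 0. Barcodes with none of the 4 genes, and mixed ones, made up the rest. In Control the Trdc, Cd8b1, Cd8a-only and Cd4 gates held 2378, 564, 1530 and 191 barcodes, and in SAP 2167, 565, 1297 and 172.

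The mitochondrial share differed little between the gates that hold a T cell gene. It was 1.18% in Control and 1.43% in SAP for the Trdc gate, 1.24% and 1.52% for Cd8a-only, 1.27% and 1.53% for Cd8b1, and 1.29% and 1.63% for Cd4. Barcodes with no gate gene stood higher, at 2.09% and 2.29%, and at 2.34% and 3.15% without the Folr1 barcodes. They were also shallower, with medians of 2139 and 1579 UMIs. Within every gate SAP was higher, by 1.09-fold to 1.27-fold over all barcodes and by 1.22-fold to 1.34-fold without the Folr1 barcodes.

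Relative to the Cd8b1 gate, the log2 share of the Trdc gate was -0.11 in Control and -0.10 in SAP, and averaged over depth bins -0.06 and -0.06, lower in 4 of 6 bins in Control and in 5 of 6 in SAP. The no-gate barcodes were above the Cd8b1 gate by 0.72 and 0.58 on the log2 scale, and by 0.37 and 0.25 within depth bins, over all barcodes. Without the Folr1 barcodes they were 0.89 and 1.02, and 0.37 and 0.26 within depth bins. For the Cd8a-only gate the values were -0.04 and -0.01, and for the Cd4 gate 0.02 and 0.09. The Cd8a-only value averaged over the libraries changed sign without the Folr1 barcodes, and the Cd4 value when a gate needed 2 UMIs, so no order of these 2 gates against Cd8b1 was found.

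The rRNA part of mitochondrial UMIs was lowest in the Cd4 gate. It was 54.4% (53.4 to 55.5) in Control and 58.1% (57.2 to 59.0) in SAP, against 59.8% and 62.7% in the Cd8b1 gate, and no other gate was lower in either library over barcodes of all depths. Within depth bins it was lower than in the Cd8b1 gate in 4 of 4 bins in Control, with a mean difference of -5.72 percentage points, and in 3 of 3 in SAP, with -5.35. Barcodes with no gate gene were about as low within depth bins, with -6.05 in Control and -4.82 in SAP, each in 5 of 5 bins, so a low rRNA part was not particular to the Cd4 gate. Correspondingly mt-Cytb was 17.8% of mitochondrial UMIs in the Cd4 gate and 14.8% in the Cd8b1 gate in Control, and 16.7% and 13.7% in SAP. The large rRNA mt-Rnr2 fell short, at 36.0% against 40.7% in Control and 35.3% against 39.1% in SAP. B and plasma cell markers summed to 11301 CPM of nuclear UMIs in the Control Cd4 gate and to 12.6 in the SAP Cd4 gate. Their part in its rRNA balance was not tested.

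**Figure D5:**
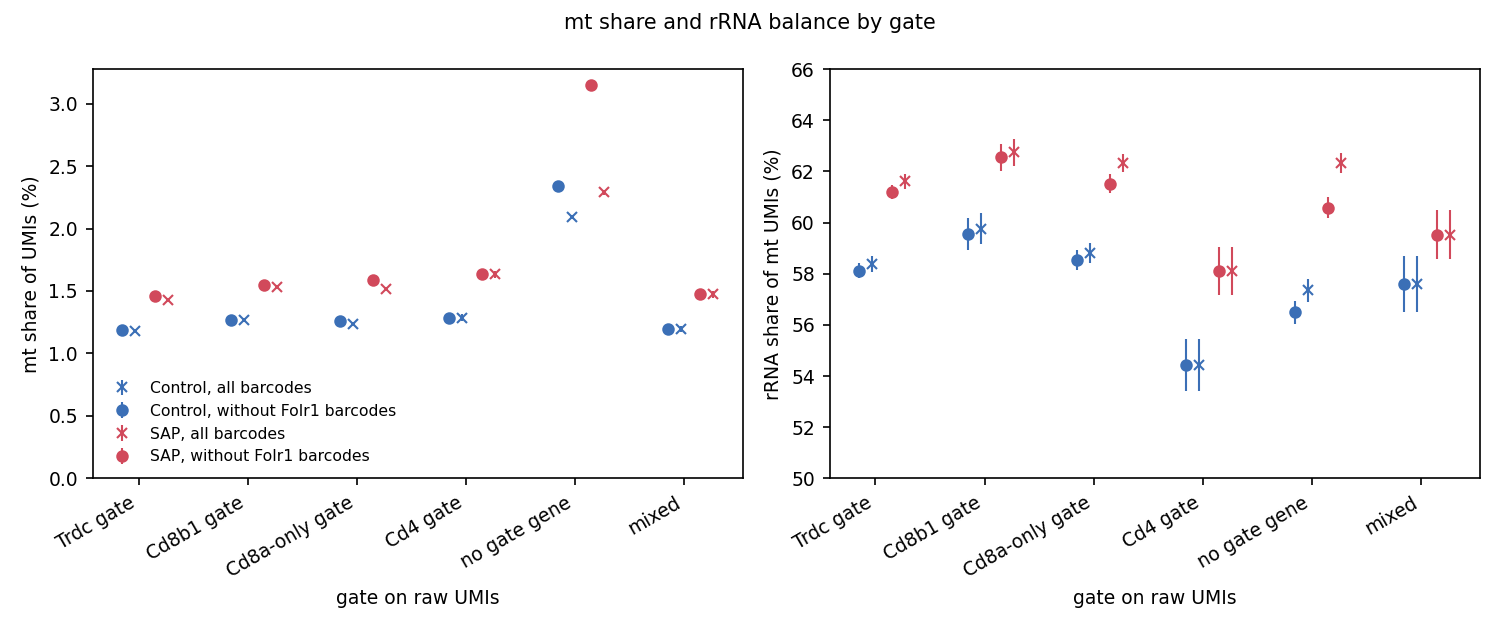
Mitochondrial share of summed UMIs and rRNA part of mitochondrial UMIs, both in percent, by gate and library, with 95% exact intervals for counting error. SAP lies above Control in each gate, and the Cd4 gate has the lowest rRNA part, 54.4% in Control and 58.1% in SAP.

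To see which nuclear RNAs went with mitochondrial RNA, barcodes were ranked by mitochondrial share within depth bins, and the 25% with the highest and the 25% with the lowest share were summed as a high and a low set, 1432 barcodes each in Control and 1298 each in SAP. Their median shares were 1.998% and 0.617% in Control and 2.43% and 0.771% in SAP, with median nuclear UMIs of 3077 and 3095 in Control. In both libraries, 11.6% of 6262 nuclear genes compared were higher in the high set by 1.2-fold or more, and 12.3% were lower by as much. Without the Folr1 barcodes the figures were 6.83% and 3.75% of 5874. The 10 lowest genes over all barcodes, 8 of them with pseudogene symbols, had 93.04% or more of their Control UMIs in the Folr1 barcodes, so genes are named here without those barcodes.

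Several genes known from T cells were among the 10 highest, although the 14 T cell markers together were lower in the high set. They summed to 8727 CPM of nuclear UMIs in the high and 9637 in the low set in Control, and to 8686 and 9745 in SAP. Tcf7, a transcription factor of naive and memory T cells, was 2.90-fold higher in the high set in Control (2.40 to 3.50) and 2.61-fold in SAP (2.17 to 3.15). Izumo1r, the folate receptor 4 of regulatory and anergic CD4 T cells, was 2.11-fold and 6.78-fold higher, from 53 and 26 UMIs in Control and 91 and 14 in SAP. Gpr183, a chemotactic receptor for oxysterols, was 2.20-fold and 2.09-fold higher, and Ms4a4b, a membrane protein of T cells, 2.06-fold and 3.17-fold. Lars2, the synthetase that loads leucine on mitochondrial tRNA, was 2.74-fold and 2.22-fold higher. The other 5 were Mir6236 (2.87 and 2.67), Katnip (2.49 and 2.28), Lgals4 (2.26 and 6.21), BE692007 (2.31 and 2.05) and Tbc1d4 (2.13 and 2.12), of which Lgals4 is an epithelial marker. The 9 epithelial markers together summed to 103 CPM of nuclear UMIs in the high and 123 in the low set in Control, and to 197 and 95.7 in SAP. Their part in the gene ratios was not tested.

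At the other end stood 2 metallothionein genes, whose products bind metals. Mt2 and Mt1, which are nuclear genes despite their symbols, were at 0.421 and 0.457 of the low set's level in Control and at 0.220 and 0.302 in SAP. Gpx8, a peroxidase of the endoplasmic reticulum, was at 0.467 and 0.496, and Trf, for the iron carrier transferrin, at 0.592 and 0.552. Igkc, an immunoglobulin light chain and a B cell marker, was at 0.564 in Control and 0.0167 in SAP. Rps19-ps6, Rpl31-ps9, Rps3a3, Rpl39l and Pepd completed the 10, between 0.414 and 0.612 in Control. The Trdc gate made up 37.2% of the high and 45.4% of the low set in Control and 36.6% and 45.8% in SAP, and the Cd4 gate 3.92% and 3.01%, and 4.28% and 2.96%, so the 2 sets also differed in their T cell types. The part of that difference in the gene ratios was not tested.

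Few nuclear genes whose products work with the mitochondrial ones passed 1.2-fold between the libraries once the Folr1 barcodes were left out. Of 37 eligible nuclear complex I subunits, 6 were at least 1.2-fold higher in SAP over all barcodes, beside 13.5% of all genes. Lower by as much were 0, beside 2.43%, and the median ratio of the subunits was 1.03. With those barcodes left out 0 were higher and 0 lower, with a median of 1.002, beside 7.22% and 1.51% of all genes. Ndufv2, for a subunit of the electron-input arm, and Ndufb11 had ratios of 1.44 and 1.30 over all barcodes, and of 1.09 and 1.04 without them, and the lowest were Ndufa4 at 0.882 and Ndufa1 at 0.883. Of 37 eligible subunits of complexes II to V, 2 were higher and 1 lower, with Cyc1 at 1.33 and Uqcrc1 at 1.28 the highest and Atp5l at 0.775 and Atp5d at 0.845 the lowest. Outside the Folr1 barcodes 0 were higher and 2 lower, Atp5g2 at 0.811 and Atp5l at 0.813, both for subunits of ATP synthase.

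Genes that make and handle mitochondrial RNA are few among the genes compared, so their counts are small. Of 4 eligible genes for DNA upkeep and transcription, 1 was at least 1.2-fold higher in SAP, Ssbp1, for the single-strand DNA-binding protein, at 1.72, and it stood at 1.02 without the Folr1 barcodes, where 0 of 5 were higher. Next was Tfam, which packs mitochondrial DNA and starts its transcription, at 1.14, and the lowest were Polg2 at 1.07 and Mterf3 at 1.07. Of 9 genes for RNA processing and stability, 3 were higher and 0 lower, beside 13.5% and 2.43% of all genes. Hsd17b10, a subunit of the enzyme that cuts tRNAs free, stood at 1.56 and fell to 1.06 without the Folr1 barcodes, whereas Mtpap, the polymerase that adds A tails to mitochondrial RNA, stood at 1.28 and at 1.32 (1.15 to 1.52) without them. The lowest were Nsun4, a methyltransferase of mitochondrial rRNA, at 0.889 and Trmt10c at 0.977. When the Folr1 barcodes were left out 2 of 9 were higher, beside 7.22% of all genes, Mtpap and Pde12, which removes A tails, at 1.21 (1.07 to 1.38).

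Of 4 eligible mitochondrial tRNA synthetases, 1 was higher, Lars2, from 179 to 228 CPM, with a ratio of 1.27 (1.22 to 1.33) that was 1.34 without the Folr1 barcodes. Iars2 followed at 0.968 and Tars2 at 0.962. Of 56 genes for proteins of the mitochondrial ribosome, the partners of mt-Rnr1 and mt-Rnr2, 9 were higher and 0 lower, near the 13.5% of all genes, with Mrpl16 at 1.61 and Mrpl2 at 1.49 the highest and Mrpl1 at 0.875 and Mrpl33 at 0.891 the lowest. Leaving out the Folr1 barcodes, 1 of 53 was higher, Mrpl38 at 1.27, and the median was 1.04, the same as for all genes compared. Of 88 cytosolic ribosomal protein genes 6 were higher and 5 lower, with a median of 0.958, beside 13.5% and 2.43% of all genes, and without the Folr1 barcodes 1 of 85 was higher and 4 lower, with a median of 0.968. Over all barcodes they ran from Rpl32l at 2.99 and Rpl6l at 2.64, both of which rested on the Folr1 barcodes, to Rps28 at 0.780 and Rpl38 at 0.789.

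The remaining lists had few or no genes past 1.2-fold without the Folr1 barcodes. Of all genes compared, 13.5% were at least 1.2-fold higher and 2.43% lower over all barcodes. Without the Folr1 barcodes these shares were 7.22% and 1.51%, and the small counts below stand beside them. Of 11 genes for mitochondrial stress and protein upkeep 3 were higher, Chchd10 being the highest at 1.81. Without the Folr1 barcodes 0 of 9 were, with Chchd10 at 1.18. The lowest was Chchd2, at 0.909 and at 0.955 without the Folr1 barcodes. Of 6 genes for mitochondrial dynamics 2 were higher, with Opa1, which fuses inner membranes, at 1.496, and of 5 without them 0 were, as Opa1, then at 1.40 (1.19 to 1.66), no longer reached 20 CPM. Of 7 biogenesis regulators 2 were higher, Myc at 1.31 and Esrra at 1.31, and 0 of 6 without them. Gabpb1 was the lowest, at 0.904 and at 0.942 without the Folr1 barcodes. Among 11 immediate early genes 1 was higher, Fosb at 1.23, and 2 without the Folr1 barcodes, Fosb at 1.29 and Dusp1 at 1.21. Over all barcodes 6 of the 11 lay above 1, beside 62.0% of all genes, and without the Folr1 barcodes again 6, beside 68.3%. The lowest over all barcodes were Egr1 at 0.854 (0.821 to 0.888) and Ier2 at 0.900 (0.872 to 0.929), which stood at 0.896 and 0.943 without the Folr1 barcodes. Of 9 heat shock genes 1 was higher, Hspb1 at 2.004, and of 8 without them 0 were, as Hspb1, then at 1.79 (1.35 to 2.39), was likewise no longer eligible. Hspa8 was the lowest, at 0.939 and at 0.983 without the Folr1 barcodes. None of 3 nuclear retained RNAs passed 1.2-fold in either setting.

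Between the high and low sets of mitochondrial share several tRNA synthetases were past 1.2-fold. Of 5 compared, 4 were at least 1.2-fold higher in the high set in both libraries over all barcodes and 3 without the Folr1 barcodes, beside 11.6% and 6.83% of all nuclear genes, with medians of 1.43 in Control and 1.56 in SAP without them. Of 11 immediate early genes 7 were, and 3 without the Folr1 barcodes. Of 7 biogenesis regulators 2 were, and 3 without. Of 37 complex I subunits and 37 of complexes II to V, 0 were higher and 0 lower without the Folr1 barcodes, with medians of 0.978 and 0.977 in Control and of 1.02 in SAP for both.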

How the data were processed

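For each library the authors deposited raw counts, UMIs per gene and barcode, whose header names Cell Ranger 7.1.0. Per the labels' protocols a version 3 kit of 10x Genomics was used, which reads the 3′ ends of RNAs, and mm10 and Seurat are named in the submitters' processing notes. Filters before deposit and the annotation version were not given in the sources used here. Every deposited barcode was kept, the shallowest with 500 UMIs. Scrublet (scanpy 1.11.5) marked 0 Control and 2 SAP barcodes at its automatic threshold, too few to have worked, so doublets stayed in. An alternative removed the 263 and 217 barcodes with the highest scores.

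UMIs were summed per library, scaled to CPM, and compared as ratios with exact conditional binomial 95% intervals, and shares with Clopper-Pearson intervals, in Python 3.11.15 (numpy 2.4.6, scipy 1.17.1). These steps were tested on simulated data. With 1 library per group no p-value was computed. Genes were eligible with 20 CPM in a library and 50 UMIs over both. Named were mitochondrial genes with 50 UMIs over both libraries, the 2 highest and 2 lowest genes of each nuclear list (most are printed, and 1 gene that the rule names is not reported here), and the 10 highest and 10 lowest in the comparison of high and low mitochondrial share by the smaller change of the 2 libraries, without Gm-numbered, Rik and mt- genes. TMM (edgeR 4.0.16) and median-of-ratios (DESeq2 1.42.0) gave scaling factors only, with R 4.3.3. Positions and lengths came from GENCODE M21, and nuclear copies from BLAST 2.17.0 of mitochondrial genes against its transcripts. The genes and lists were chosen with earlier results of these data known.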

Additional observations from a re-analysis of the deposited data

Results flagged for a closer look

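The SAP over Control ratio of mt-Cytb lay on opposite sides of 1 in 2 gates. It was 1.19 in the Cd4 gate (1.12 to 1.28), from 1627 UMIs in Control and 1764 in SAP, and 0.939 among barcodes with no gate gene (0.910 to 0.968), from 8100 and 8289 UMIs. With 1 library in each group the difference was not tested. Without the Folr1 barcodes the value among barcodes with no gate gene was 1.18 (1.15 to 1.22).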

How the results depend on the processing

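The settings were fixed with earlier results known, except that leaving out the Folr1 barcodes was chosen after seeing the data. No paired analysis was possible because each group has 1 library. The log2 ratio of the mitochondrial share between SAP and Control, 0.26, was 0.25 in barcodes with at most 10% mitochondrial UMIs, 0.22 with at least 1000 UMIs, 0.28 with at least 2 T marker UMIs, 0.32 without the Folr1 barcodes, 0.30 as a mean over depth bins and 0.35 from medians. Under the first 4 of these settings the rRNA part was 58.9%, 57.8%, 58.7% and 57.9% in Control and 62.0%, 61.3%, 62.1% and 61.1% in SAP. The number of mitochondrial genes at least 1.2-fold higher in SAP, 3, was 6 without the Folr1 barcodes, 1 with TMM and 1 with median-of-ratios scaling. The ratio for mt-Cytb turned to -0.011 on the log2 scale with TMM. The mitochondrial share of barcodes under 1000 nuclear UMIs over those of 4000 to 6000, 2.77 on the log2 scale, was 2.21 with at most 10% mitochondrial UMIs, 2.47 with T markers and 2.49 from medians. Against the Cd8b1 gate, the Trdc gate, at -0.10, gave -0.13 with at most 10% mitochondrial UMIs, -0.12 with at least 1000 UMIs, -0.091 without top Scrublet scores, -0.091 without the Folr1 barcodes, -0.13 with 2 UMIs of a gate gene, -0.060 in depth bins and -0.15 with gates from thinned counts. The Cd8a-only gate, at -0.03, gave -0.058 with at most 10% mitochondrial UMIs, -0.10 with at least 1000 UMIs, -0.094 with 2 UMIs of a gate gene, -0.13 with thinned counts, and turned to 0.016 without the Folr1 barcodes. The Cd4 gate, at 0.05, turned to -0.044 with 2 UMIs of the gate gene. The count of nuclear genes at least 1.2-fold apart between barcodes of high and low share, 1494, was 621 without the Folr1 barcodes. Each main value was given an interval, that of counting error for the rRNA parts and for ratios between the libraries. For the depth and gate values it was the mean plus or minus the standard deviation of the 2 library values. For a count of genes it was a range of 1.5 times. Of all comparisons of these main values with an alternative, 42 stayed within that interval, 32 moved further and 2 turned. For single genes these numbers were 109, 34 and 1. The cause was not tested.

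With 1 library per group, no value here separates the phage treatment from the library. The tRNAs, mt-Co2, mt-Nd4l, mt-Nd6 and mt-Co3 rest on 732 UMIs or fewer in each library. How reads shared with a nuclear copy were counted is not given in the sources used here.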

Other observations

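Mir6236, chosen after its values were seen, was higher in SAP and in barcodes of high mitochondrial share, the comparisons in which it was followed. Its ratio of SAP to Control was 1.45 (1.40 to 1.51), from 4964 and 7212 UMIs, between those of mt-Rnr2 and mt-Rnr1, and led the named nuclear genes between barcodes of high and low mitochondrial share when genes are ranked by the smaller change of the 2 libraries. Rn18s-rs5 had a ratio of 1.25 (1.24 to 1.26) between the libraries, by CPM of all UMIs. In barcodes with a mitochondrial share of 20% and over it reached 182637 CPM of nuclear UMIs in Control and 197960 in SAP. Malat1, a nuclear retained RNA, had a ratio of 1.01, and Gapdh, a cytosolic enzyme, of 1.03 over all barcodes.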
